A study of Homo sapiens with 8 samples.

Results

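The response to 12 h of hypoxia (1% O2) against normoxia (21% O2) was taken over 2 colon cancer cell lines together, so that a gene counts as responding to oxygen whichever line it is read in. All 8 arrays of the series entered, and they were chosen by their oxygen label alone: 4 arrays after hypoxia and 4 at normoxia. DKS5 is labelled K-ras mutant and DKO3 is labelled K-ras knockout, that is wild-type. Each line had 2 arrays at 21% O2 and 2 arrays after 12 h at 1% O2, in the same standard medium. As background, both are known as clones of the DLD-1 colorectal cancer line, so each genotype is read in 1 clone. K-ras expression is not analysed here, and the genotypes are taken as labelled. RNA was amplified and hybridised to Affymetrix HG-U133 Plus 2.0 arrays, which read a transcript through sets of short probes (probe sets). The question was which genes rose and which fell with low oxygen in the same direction in both lines.

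As background, cells sense oxygen through prolyl hydroxylases, the EGLN enzymes, which mark the alpha subunits of the hypoxia-inducible factors (HIF) for destruction while oxygen is present. At low oxygen the alpha subunits persist, pair with ARNT and bind DNA at short elements whose core reads ACGTG or GCGTG. Their known targets in epithelial and tumour cells include glucose transporters and glycolytic enzymes, vascular factors such as VEGFA, and regulators that shut down mitochondria. Genes that fall in hypoxia are less well described, and several known HIF targets are themselves repressors.

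Signals are MAS5 signals scaled to a common trimmed mean of 172.1, on a linear scale. Differences are hypoxia minus normoxia on the log2(signal + 16) scale with line held constant, so the change of dim genes is understated. The design text says that the incubations were repeated to give 2 samples per group, without saying whether these were independent cultures. The p-values therefore rest on differences between samples of a group that may be no more than technical. The correlation between the arrays of a group ran from 0.976 to 0.989 over the genes tested, and DKS5 hypoxia replicate 1 was closer to both DKS5 normoxia arrays (0.986 and 0.986) than to its own replicate (0.976). DKS5 hypoxia replicate 2 was less close to the DKS5 normoxia arrays (0.972 and 0.975). Its correlations with the DKO3 normoxia arrays were 0.956 and 0.959, against 0.970 and 0.972 for replicate 1. The 3' to 5' signal ratio of the ACTB control probe sets, a sign of how complete the RNA or the amplified product was, moved partly with oxygen. In every group it was also higher in replicate 1 than in replicate 2. It was 55.1 and 34.3 in DKS5 normoxia, 54.8 and 25.6 in DKS5 hypoxia, 49 and 14.9 in DKO3 normoxia, and 11.5 and 11 in DKO3 hypoxia. Markers of colon epithelium summed to signals between 20730 and 25800 on every array, with 16 of 24 members above the filter on dim genes. The sum is weighted to bright members such as EPCAM, and single members differed between the lines. KRT20 had signals of 6.2 to 15.5 in DKS5 and 301 to 445 in DKO3. VIL1 had 54.8 to 103 in DKS5 and 12.8 to 17.6 in DKO3. Of 15 markers of other cell types, 3 (HBB, ACTA2 and COL1A1) were above the filter, and none passed the test. All 15 summed to 223 and 233 in DKS5 normoxia and 218 and 156 in DKO3 normoxia. In hypoxia they summed to 264 and 245 in DKS5 and 230 and 171 in DKO3.

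Low oxygen mainly raised transcripts. Of 12735 genes tested, 181 (1.42%) were higher in hypoxia and 16 (0.126%) were lower at a Benjamini-Hochberg adjusted p under 0.05 in limma's additive fit; such genes are called higher or lower here. At an unadjusted p under 0.05 the counts were 1323 and 658. All 181 and all 16 also moved the same way in both lines in the strict sense that the hypoxia arrays of each line lay beyond both normoxia arrays of that line. Over all genes tested, 1087 (8.54%) met that condition upward and 666 (5.23%) downward, and 396 met it in opposite directions in the lines. The condition reads the same arrays as the fit, so it is no second support for the calls. Of the 181 rises, 4 (ANGPTL4, FGD5, NPAS3 and NRN1) had all normoxia signals under the filter level of 13.8. NPAS3 was under it on all DKO3 arrays, at 3.96 and 2.69 at normoxia and 8.30 and 10.9 in hypoxia. The rises were also the larger changes. Among the called genes, 81 rose at least 2-fold and 10 at least 4-fold, while 2 fell at least 2-fold. The median rise was 0.94 and the median fall -0.72, against a median of 0.029 over all genes tested. These counts depended on single arrays. A fit that left out 1 array rested on the other array of that group alone. Without DKS5 hypoxia replicate 1 this was replicate 2, the DKS5 hypoxia array with the lower correlations above. Without DKS5 hypoxia replicate 1 there were 385 higher and 184 lower genes, which included 177 and 15 of the original calls. The counts were 92 and 3 without DKS5 normoxia replicate 1, 103 and 3 without DKO3 hypoxia replicate 1, and 108 and 8 without DKO3 hypoxia replicate 2. Without DKS5 normoxia replicate 2, DKS5 hypoxia replicate 2 and DKO3 normoxia replicates 1 and 2 the higher count stayed between 123 and 135 and the lower count was 6, 9, 6 and 6. With the ACTB ratio as a covariate 89 of the 181 and 0 of the 16 were still called, although all 181 kept a positive and all 16 a negative difference. Their median differences were then 0.89 and -0.65.

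On the log2(signal + 16) scale the largest rise was that of NDRG1, a stress gene whose product is induced by hypoxia in many cell types. Its signal was 132 and 127 in DKS5 and 413 and 342 in DKO3 at 21% O2, and 1996, 2097, 2006 and 1932 in the hypoxia arrays. The 4 hypoxia arrays thus lay within a narrow band although the lines differed at normoxia. The difference was 3.08 ± 0.23 (SE, 4 arrays against 4; adjusted p = 1.16e-06), or 8.47-fold. The order of the rises depends on the pseudocount: with 1 in place of 16 the difference was 3.18 for NDRG1, 3.64 for MIR210HG and 3.85 for ANGPTL4. MIR210HG, the transcript from which the microRNA miR-210 is cut, was nearly dark at normoxia. It had signals of 8.91, 15.2, 15.4 and 14.6 at 21% O2 and of 233, 191, 194 and 113 at 1% O2, and rose by 2.72 ± 0.20 (adjusted p = 1.16e-06). BHLHE40, a transcriptional repressor of the clock and of lipid and stress genes, went from 102, 88.7, 149 and 77.5 to 563, 719, 665 and 462 (2.38 ± 0.20). The groups did not overlap for any of these genes.

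**Figure D1:**
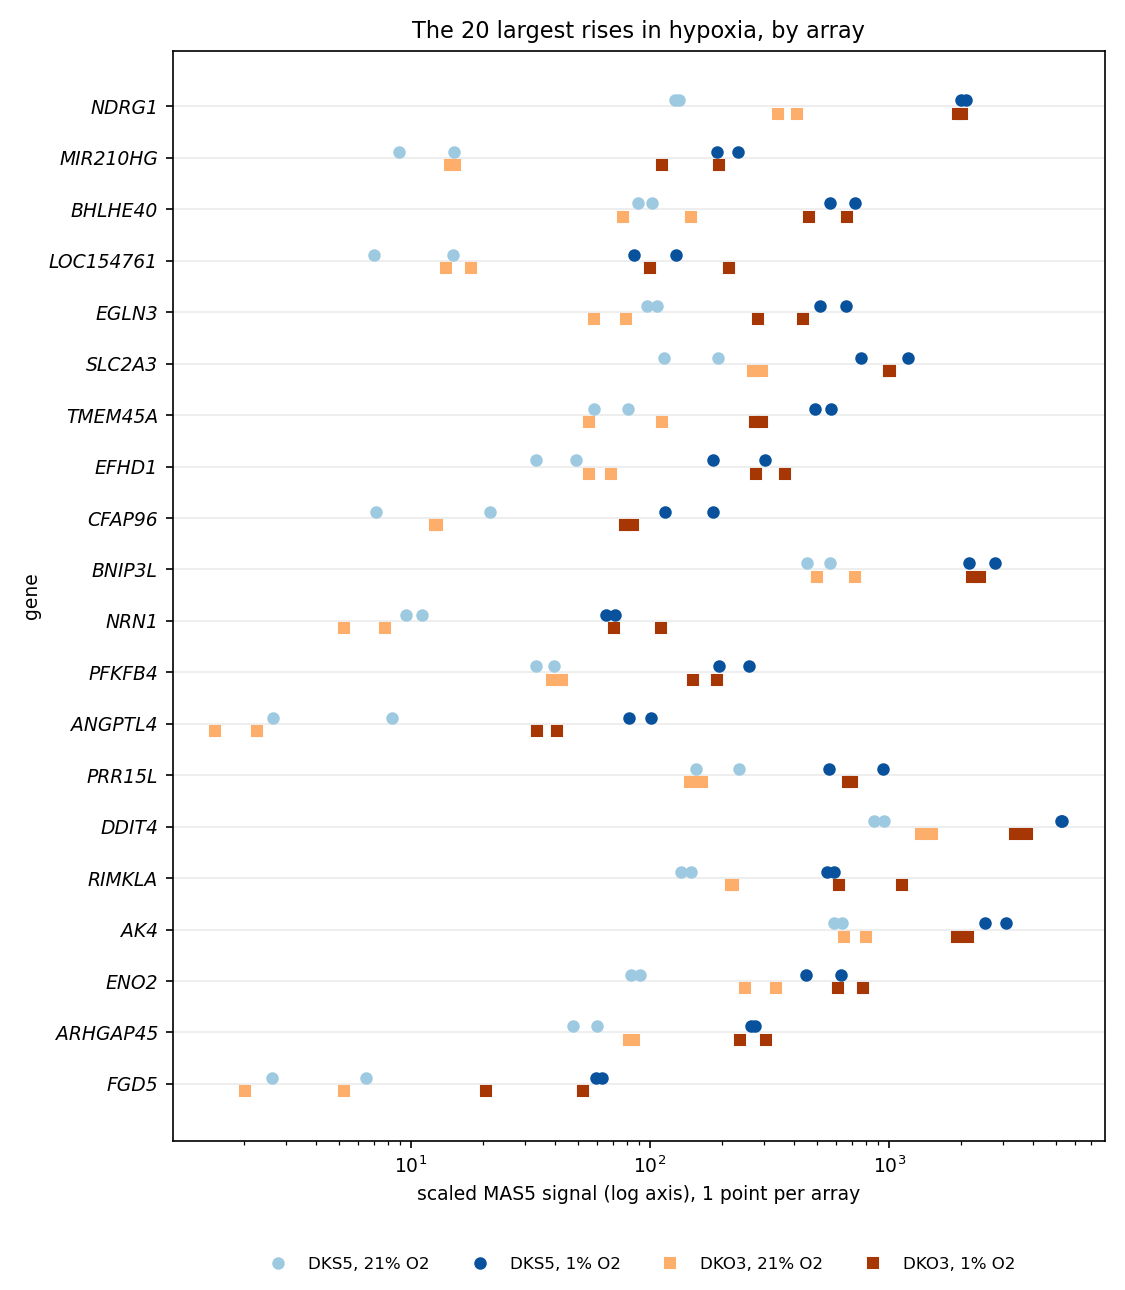
Scaled MAS5 signal of the 20 genes with the largest rises, on a log axis, with 1 point per array; circles are DKS5 and squares DKO3, light at 21% O2 and dark at 1% O2. In every row the dark points of a line lie to the right of the light points of the same line, with NDRG1 (8.47-fold) at the top.

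EGLN3, one of the prolyl hydroxylases that act on HIF, rose from 97.3, 107, 58.1 and 79.5 to 515, 659, 437 and 283 (2.24 ± 0.18). SLC2A3, the high-affinity glucose transporter GLUT3, rose from 192, 114, 268 and 294 to 763, 1194, 1010 and 996 (2.17 ± 0.20). BNIP3L, a mitochondrial receptor for mitophagy, rose from 564, 455, 722 and 499.7 to 2148, 2758, 2401 and 2211 (2.07 ± 0.15). Its sister BNIP3 was not called. BNIP3 gave signals of only 32 to 88.4, with hypoxia and normoxia arrays overlapping (-0.02 ± 0.23, adjusted p = 0.98). The other members of the top 20 include genes outside the textbook pathways. LOC154761, an uncharacterised transcript, rose by 2.27 from signals of 7.04 to 17.9 to signals of 85.8 to 215. TMEM45A, a transmembrane protein gene, rose by 2.16, EFHD1, which encodes a mitochondrial calcium-binding protein, by 2.13, and CFAP96, a cilia- and flagella-associated gene, by 2.11. PRR15L rose by 1.93, RIMKLA, an enzyme of N-acetylaspartylglutamate synthesis, by 1.87, and FGD5, an exchange factor gene known from endothelium, by 1.63. All 20 were called in each of the 8 fits that left out 1 array, and all 20 were called with the ACTB covariate. In all, 77 of the 181 rises were called in every such leave-out fit.

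The promoters of the leading genes are shown because HIF binds short cores whose presence can be read from the sequence. The windows run from 250 bases before to 50 bases after the RefSeq transcription start (GRCh38.p14), read 5′ to 3′ on the gene's strand, and capitals mark the letters ACGTG or GCGTG on either strand; CACGTG, an E-box that BHLHE40 and MYC family proteins can bind, holds ACGTG on both strands. MIR210HG lies at chr11:568408-568707 on the minus strand with 2 matches, BHLHE40 at chr3:4979187-4979486 on the plus strand with 4, of which CACGTG gives 2, and EGLN3 at chr14:33951025-33951324 on the minus strand with 0. TMEM45A, the next gene by this rule, has 0 matches in its window and is not printed.
MIR210HG: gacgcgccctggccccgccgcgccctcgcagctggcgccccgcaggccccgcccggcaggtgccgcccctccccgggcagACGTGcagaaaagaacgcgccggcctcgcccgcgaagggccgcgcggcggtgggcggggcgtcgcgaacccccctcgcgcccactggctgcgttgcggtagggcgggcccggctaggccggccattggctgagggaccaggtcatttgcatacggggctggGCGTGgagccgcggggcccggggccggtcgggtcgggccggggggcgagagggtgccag
BHLHE40: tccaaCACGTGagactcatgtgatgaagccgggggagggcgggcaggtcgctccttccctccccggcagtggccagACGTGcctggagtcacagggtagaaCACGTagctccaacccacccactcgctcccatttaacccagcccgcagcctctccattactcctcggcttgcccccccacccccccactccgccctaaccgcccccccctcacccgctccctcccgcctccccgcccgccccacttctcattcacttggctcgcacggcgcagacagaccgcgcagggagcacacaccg
EGLN3: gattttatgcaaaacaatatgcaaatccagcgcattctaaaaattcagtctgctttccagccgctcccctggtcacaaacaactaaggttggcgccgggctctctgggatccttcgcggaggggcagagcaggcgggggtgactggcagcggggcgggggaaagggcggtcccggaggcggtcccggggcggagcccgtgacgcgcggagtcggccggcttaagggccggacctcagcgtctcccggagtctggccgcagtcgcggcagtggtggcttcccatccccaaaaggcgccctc
The mature microRNA cut from the MIR210HG locus lies at chr11:568112-568133 on the minus strand; its seed, bases 2 to 8, is in capitals, and the microRNA itself was not measured by these arrays.
hsa-miR-210-3p: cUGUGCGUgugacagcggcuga
The core is common in promoters of all genes tested, and no test was run. It was present in 63.9% of the 230 promoters matched to 146 of the 181 genes that rose, in 69.6% of the 102 promoters of those that rose at least 2-fold, in 76.0% of the 25 promoters of 13 of the 16 genes that fell, and in 59.5% of the 15006 promoters of all genes tested. CACGTG was present in 15.2%, 19.6%, 4.0% and 9.11% of the same sets. These are matches of letters, not binding sites, and no match says only that the letters are absent from this window.

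Most of the listed genes of glucose uptake and glycolysis rose. This list and those below were chosen with earlier results of these data known. No set test was run, so their counts, shares and medians are descriptions. Of 20 genes tested, 15 rose, 0 fell and 5 did not pass, and the median difference was 0.87, against 0.029 over all genes. Both inputs and the regulatory step were represented. SLC2A1, the ubiquitous glucose transporter GLUT1, went from 1697, 1865, 1486 and 1698 to 3178, 3386, 2460 and 2050 (0.69 ± 0.13, adjusted p = 0.00743). PFKFB4 and PFKFB3 make the allosteric activator of phosphofructokinase and rose by 1.95 ± 0.18 and 1.29 ± 0.16, and PFKP, the platelet-type phosphofructokinase, by 1.22 ± 0.14. PFKL, the liver type, and PFKM, the muscle type, stood at 0.15 and -0.18 and did not pass. The neuronal enolase ENO2 rose by 1.80 ± 0.23, and ENO1, the ubiquitous one, by 1.09 ± 0.21. Below them ALDOC rose by 1.40, ALDOA by 1.13, TPI1 by 0.96, GPI by 0.86, HK1 by 0.82, GAPDH by 0.67, HK2 by 0.64 and PGK1 by 0.55. PKM (0.88 ± 0.25, adjusted p = 0.102) and PGAM1 (0.39 ± 0.11, adjusted p = 0.0952) did not pass. In leave-out fits the count of 15 ran from 10 without DKS5 normoxia replicate 1 to 16 without DKS5 hypoxia replicate 1, and 9 of the genes were called in every one. With the ACTB covariate 10 were called, and SLC2A1, HK1, GPI, GAPDH and ENO1 were not, with adjusted p of 0.059, 0.21, 0.177, 0.375 and 0.0561.

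**Figure D2:**
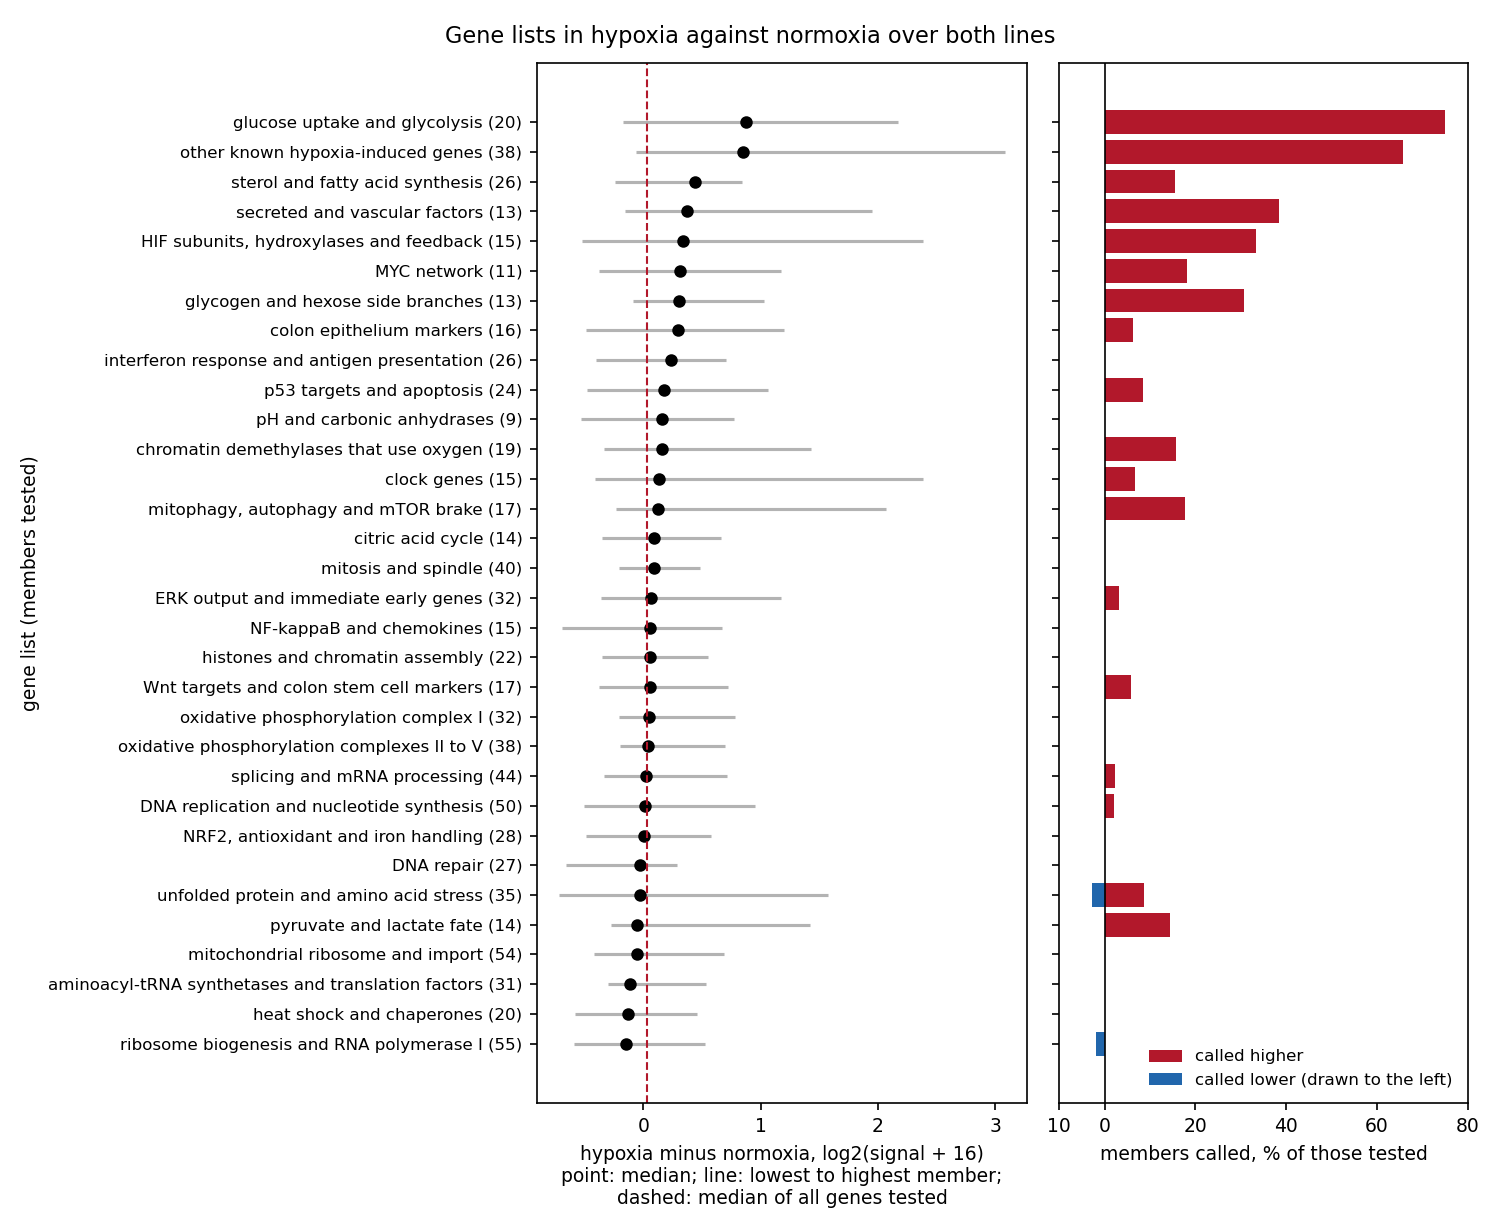
Gene lists with at least 5 members tested, ordered by the median hypoxia minus normoxia difference; the left panel shows the median (point) and the lowest and highest member (line) with the median of all genes (0.029, dashed), and the right panel the share of members called higher (red) and lower (blue, drawn to the left). Glycolysis (15 of 20) and other known hypoxia genes (25 of 38) stand at the top and ribosome biogenesis (median -0.15, 1 of 55 lower) at the bottom.

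Few genes of pyruvate and lactate fate were called. Of 14 genes tested, PDK1 and LDHA rose and the median was -0.05. PDK1, the kinase that switches off pyruvate dehydrogenase, went from 939, 807, 679.7 and 480.3 to 2598, 2383, 1227 and 1785 (1.42 ± 0.15, adjusted p = 3.23e-05). LDHA, which turns pyruvate into lactate, was already bright, at 5439 to 5857 in normoxia, and reached 6623 to 9225 in hypoxia (0.47 ± 0.10, adjusted p = 0.0199). PDK3 stood at 0.73 (adjusted p = 0.0503). The LDHA call ended without DKS5 normoxia replicate 1 or 2, DKS5 hypoxia replicate 2 or DKO3 hypoxia replicate 2, and PDK1 was called in every leave-out fit. Storage of glucose moved too. Of 13 genes of glycogen and hexose side branches 4 rose, namely GBE1, the glycogen branching enzyme (1.03 ± 0.14), GYS1, muscle glycogen synthase (0.91 ± 0.20), PPP1R3B, which targets protein phosphatase to glycogen (0.86 ± 0.17), and PGM1, phosphoglucomutase (0.81 ± 0.12). GBE1 and PGM1 were called in every leave-out fit and with the ACTB covariate, whereas GYS1 was called in 3 and PPP1R3B in 5 of the 8 leave-out fits, and GYS1 (adjusted p = 0.229) and PPP1R3B (0.064) were not called with it.

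The respiratory chain itself did not show calls. Limma called 0 of 32 complex I genes, 0 of 38 genes of complexes II to V, 0 of 14 citric acid cycle genes and 0 of 54 genes of the mitochondrial ribosome and import, with medians of 0.05, 0.04, 0.09 and -0.05. Over all genes tested 1.42% were called higher and 0.126% lower, so 0 calls in lists of these sizes say little about them. Without adjustment, 5, 5, 1 and 3 were higher and 0, 0, 2 and 4 lower at p under 0.05. Over all 12735 genes the counts were 1323 and 658. In these lists NDUFA11 (0.78 ± 0.21, adjusted p = 0.0809), a complex I subunit, and COX8A (0.70 ± 0.20, adjusted p = 0.102), a cytochrome oxidase subunit, had the smallest p. Without DKS5 hypoxia replicate 1 there were 3 complex I genes called higher. Of 17 genes of mitophagy, autophagy and the mTOR brake 3 rose. Besides BNIP3L, the mitophagy receptor, these were DDIT4 and ULK1. DDIT4, the mTOR inhibitor REDD1, went from 867, 953, 1507 and 1361 to 5297, 5225, 3781 and 3355 (1.91 ± 0.19). ULK1, the kinase that starts autophagy, went from 5.71 to 20.1 in the normoxia arrays to 25.2 to 45.3 in hypoxia (0.87 ± 0.19, adjusted p = 0.0241), was called in 4 of 8 leave-out fits and was not called with the ACTB covariate (adjusted p = 0.229).

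Of 15 genes of the HIF subunits, the hydroxylases and their feedback, 5 rose and 0 fell. Those that rose included EGLN1 and EGLN3, hydroxylases that act on HIF. Besides BHLHE40 and EGLN3 they were EGLN1, the main prolyl hydroxylase, which went from 1273 to 1634 up to 2066 to 3471 (0.87 ± 0.15, adjusted p = 0.00548), the zinc finger gene ZNF292 (0.91 ± 0.17) and MXI1, a MAX partner that opposes MYC (0.92 ± 0.17). All except MXI1, which was not called without DKS5 normoxia replicate 1, were called in every leave-out fit. The subunits did not pass. HIF1A, the main alpha subunit, had signals of 2606, 2542, 2489 and 1562 in normoxia and 1978, 1599, 1277 and 1583 in hypoxia, which overlapped within DKO3 (-0.50 ± 0.15, adjusted p = 0.112). Its adjusted p was 0.0472 without DKS5 hypoxia replicate 1 and 0.605 with the ACTB covariate. EPAS1, the HIF-2 alpha gene, stood at 0.34 ± 0.18 (adjusted p = 0.40) and ARNT at 0.17 ± 0.15 (adjusted p = 0.621). CA9, a further classical target, is not analysed here.

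Of 38 other known hypoxia-induced genes 25 rose, 0 fell and 13 did not pass, with a median of 0.85. In 33 of them (86.8%) the arrays of each line were apart in the upward direction, against 8.54% of all genes tested. This list was made of genes known to rise, so its direction is no surprise of these arrays. AK4, a mitochondrial adenylate kinase, rose by 1.82 ± 0.16, from 586 to 800 at normoxia to 1923 to 3075. ANKRD37 rose by 1.41 ± 0.15, P4HA1 and PLOD2, hydroxylases of collagen, by 1.22 ± 0.13 and 1.19 ± 0.14, and VLDLR, a lipoprotein receptor, by 1.57 ± 0.18. The members that did not pass included RORA (0.13), JMJD6 (0.03), BCL6 (-0.02) and TPBG (-0.06), named here after their values were seen. The count ran from 20 without DKS5 normoxia replicate 1 to 27 without DKS5 hypoxia replicate 1, and was 21 with the ACTB covariate.

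Enzymes that remove methyl groups from histones use oxygen. Of 19 listed genes of oxygen-using chromatin enzymes, which also held TET2, TET3 and JMJD6, 3 rose. KDM3A, a demethylase of histone H3 lysine 9, went from 200, 247, 233 and 144 to 765, 483, 512 and 556 (1.43 ± 0.18, adjusted p = 0.000245). KDM4B rose by 1.35 ± 0.17, and both were called in every leave-out fit and with the ACTB covariate. KDM1A, which works with flavin rather than as an iron enzyme, rose by 0.52 ± 0.12 (adjusted p = 0.0295) and was called in the single leave-out fit without DKS5 hypoxia replicate 1.

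Among 13 secreted and vascular factors 5 rose. ANGPTL4, an inhibitor of lipoprotein lipase, had signals of 1.52 to 8.36 at normoxia, all under the filter level of 13.8, and reached 81.6 and 101 in DKS5 and 40.7 and 33.6 in DKO3. NRN1, neuritin, was likewise at 5.25 to 11.1 at normoxia and 65.7 to 111 in hypoxia. Both entered the test through their hypoxia arrays, and their fitted differences (1.95 each) depend on the pseudocount. Against the filter level ANGPTL4 was at least 4.20-fold and NRN1 at least 5.65-fold higher in hypoxia. Of the 181 rises, 4 (these, FGD5 and NPAS3) had all normoxia signals under that level. ADM, the vasodilator adrenomedullin, rose by 1.48 ± 0.18, and VEGFA, the vascular growth factor, by 1.35 ± 0.24 (adjusted p = 0.00722). Through its brightest probe set VEGFA signals were 231 and 215 against 1200.3 and 865 in DKS5 but 198 and 174 against 296 and 275 in DKO3. In the further probe sets the lines were closer. These went from 118 and 124 to 441 and 196, 69.4 and 57.3 to 199 and 108, and 88.9 and 110 to 233 and 280 in DKS5. In DKO3 they went from 99.7 and 155 to 430 and 185, 38.5 and 58 to 171 and 80.7, and 54.6 and 89 to 150 and 132. The groups did not overlap in either line. The 4 VEGFA probe sets had differences between 1.05 and 1.35, of which 3 passed when each probe set was tested alone (the fourth had an adjusted p of 0.0614). STC1, stanniocalcin, rose by 1.18 ± 0.23 and was not called without DKS5 normoxia replicate 1 or with the ACTB covariate (adjusted p = 0.0809).

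Sterol and fatty acid synthesis shifted upward with few calls. Of 26 genes 4 rose, 0 fell and 24 had a positive difference, with a median of 0.44. In 12 (46.2%) the arrays of each line were apart upward, against 8.54% of all genes. INSIG1 and INSIG2 hold the sterol sensor SCAP in the endoplasmic reticulum. INSIG1 went from 2476, 2273, 2116 and 1050.1 to 4163, 4987, 2373 and 2386 (0.80 ± 0.17), and INSIG2 from 543, 689, 953 and 769.7 to 1376, 1248, 1233 and 1275 (0.81 ± 0.15). ACSS2, which makes acetyl-CoA from acetate, and LSS, lanosterol synthase, both rose by 0.84. SCD, the stearoyl-CoA desaturase, stood at 0.45 ± 0.11 (adjusted p = 0.051). The count was 8 without DKS5 hypoxia replicate 1 and 0 without DKS5 normoxia replicate 1, and no member was called in every leave-out fit.

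The stress, growth and cell cycle lists of this paragraph held 1 to 4 calls each. Those with 0 calls, such as heat shock, mitosis and DNA repair, are given below. Of 35 genes of the unfolded protein and amino acid stress response VLDLR, VEGFA and TRIB3 rose and SLC7A11 fell, with a median of -0.03. TRIB3, a pseudokinase, rose by 0.93 ± 0.20 (adjusted p = 0.0264) and was not called in 6 of 8 leave-out fits or with the ACTB covariate. Of 24 p53 targets and apoptosis genes GDF15, a stress cytokine, rose by 1.02 ± 0.17 and CDKN1A, the cell cycle inhibitor p21, by 0.81 ± 0.16. Of 11 genes of the MYC network MYCL rose by 1.17 ± 0.20 beside MXI1, and MYC stood at -0.37 ± 0.17 (adjusted p = 0.30). Single genes rose in 6 further lists: KRT19, a keratin of simple epithelium, by 1.20 ± 0.16 among 16 colon epithelium markers; SPRY1, a feedback inhibitor of growth factor signalling, by 1.17 ± 0.20 among 32 genes of ERK output; ASCL2, an intestinal stem cell factor, by 0.73 ± 0.13 among 17 Wnt targets; TK1, thymidine kinase, by 0.96 ± 0.21 among 50 replication genes; and CLK3, a splicing kinase, by 0.71 ± 0.17 among 44 splicing genes, with BHLHE40 alone of 15 clock genes. Over all genes 1.42% were called higher. A single call made up 2% of the replication list and 2.27% of the splicing list, close to that share. It made up 3.12% of the ERK output, 5.88% of the Wnt, 6.25% of the colon epithelium and 6.67% of the clock list. In lists this short 1 call says little about the list. KRT19, SPRY1, ASCL2, GDF15 and MYCL were called in every leave-out fit. CDKN1A was called in 6 of 8, TK1 and CLK3 were each called in 2 of 8, and ASCL2, TK1 and CLK3 were not called with the ACTB covariate.

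Only 16 genes fell, and the falls were modest. BDNF, a neurotrophin, and MKX, a homeobox factor of tendon, were the ones that fell at least 2-fold. BDNF went from 383 and 285 to 200.3 and 116 in DKS5 and from 346 and 332 to 185 and 143 in DKO3. Every hypoxia array was below every normoxia array of both lines, and the difference was -1.01 ± 0.18 (adjusted p = 0.00737). MKX went from 104 and 105 to 43.9 and 44.9 in DKS5 and from 235 and 157 to 56.5 and 126 in DKO3, so its groups were apart within each line but overlapped between the lines (-1.02 ± 0.21, adjusted p = 0.0174). BDNF-AS, which overlaps BDNF on the opposite strand, fell with it, from 126 to 148 at normoxia to 53.6 to 91.9 in hypoxia (-0.83 ± 0.17, adjusted p = 0.0199). Whether the overlap of these genes lets one transcript add to the other's signal was not tested.

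**Figure D3:**
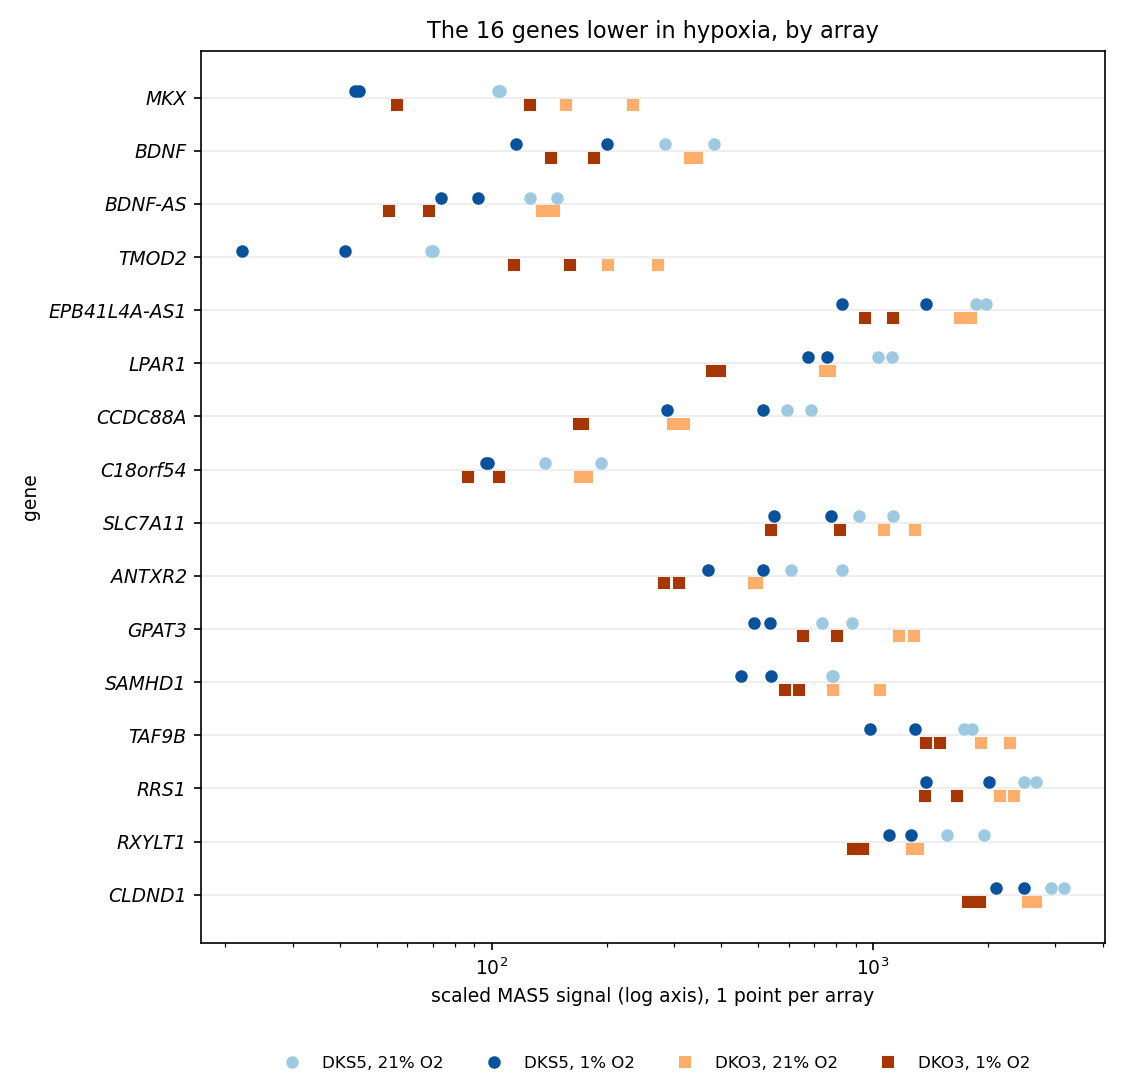
Scaled MAS5 signal of the 16 genes lower in hypoxia, on a log axis, with 1 point per array; circles are DKS5 and squares DKO3, light at 21% O2 and dark at 1% O2. The dark points of each line lie to the left of its light points in all 16 rows, from MKX (2.02-fold lower) to CLDND1 (1.38-fold lower).

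LPAR1, a receptor for the growth lipid lysophosphatidic acid, fell from 1032, 1119.7, 749 and 772 to 757, 674, 398 and 379 (-0.76 ± 0.14, adjusted p = 0.00743). EPB41L4A-AS1, a long noncoding RNA, fell from 1863, 1979, 1692 and 1808 to 1379, 827, 953 and 1126 (-0.79 ± 0.15, adjusted p = 0.0098). These were the 2 falls called in all 8 leave-out fits. BDNF was called in 7, MKX and GPAT3 in 5, BDNF-AS in 3, SLC7A11 in 2 and RRS1 in 1, that without DKS5 hypoxia replicate 1. With the ACTB covariate LPAR1 had the smallest adjusted p of the 16 (0.0685), followed by BDNF (0.0809). The differences shrank little, to -0.71 and -0.87, while the median SE of the 16 grew from 0.15 to 0.18. The part of RNA quality in the falls was not tested beyond this covariate. With the mean of all probe sets in place of the brightest, 4 of the 16 were called.

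The other falls spread over unrelated functions. SLC7A11, the cystine importer that feeds glutathione synthesis, fell from 919.9, 1125, 1287 and 1066 to 775, 551, 538 and 818 (-0.72 ± 0.16, adjusted p = 0.0369). GPAT3, an acyltransferase of triglyceride synthesis, fell from 734, 881, 1280.1 and 1170.2 to 536, 486, 654 and 802 (-0.69 ± 0.14, adjusted p = 0.0142). SAMHD1, which degrades deoxynucleotides, fell by 0.60 on the log2 scale, and TAF9B, a subunit of the TFIID complex, by 0.59. TMOD2, a cap of actin filaments, had a difference of -0.80, CCDC88A, the actin-binding protein girdin, of -0.75, and ANTXR2, an anthrax toxin receptor, of -0.69. RXYLT1, which glycosylates dystroglycan, stood at -0.52 and CLDND1, a claudin-like membrane protein, at -0.46. C18orf54 fell by 0.72 and RRS1, a ribosome assembly factor, by 0.59. All 16 lay between 22.1 and 3161 in signal, and the adjusted p of the genes named in this paragraph ran up to 0.0487.

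Ribosome biogenesis leaned downward as a list, with 1 call. Of 55 genes 39 had a negative difference, the median was -0.15 against 0.029 over all genes, and in 16 (29.1%) the arrays of each line were apart downward, against 5.23% of all genes. RRS1 went from 2668, 2480, 2149 and 2338 to 2016, 1379, 1365 and 1664 (adjusted p = 0.0328). LYAR (-0.54 ± 0.16, adjusted p = 0.101) and UTP15 (-0.51 ± 0.15, adjusted p = 0.119), both nucleolar factors, did not pass, nor did POLR1D, a subunit of RNA polymerase I and III, which stood at 0.53 ± 0.15 (adjusted p = 0.0926). The median was -0.20 with the ACTB covariate. Without DKS5 hypoxia replicate 1, 5 members were called lower (MPHOSPH10, RRS1, LYAR, NOP16 and LTV1), and in the other leave-out fits 0 were called. Heat shock genes and chaperones had a median of -0.13, with 15 of 20 members negative and 0 called by limma, and 4 lower at an unadjusted p under 0.05. Among them HSPA4, CCT5, CCT6A and CCT8 were called lower without DKS5 hypoxia replicate 1. The aminoacyl-tRNA synthetases and translation factors had a median of -0.11 with 23 of 31 negative and 0 called by limma, with 3 higher and 2 lower when p was not adjusted. CXCL1, a chemokine, stood at -0.70 ± 0.22 (adjusted p = 0.135) and TFRC, the transferrin receptor, at 0.12 ± 0.11 (adjusted p = 0.655).

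Limma called 0 genes in 7 further lists. Their medians were 0.09 over 40 genes of mitosis and the spindle, -0.03 over 27 of DNA repair, 0.06 over 15 of NF-kappaB and chemokines, 0.24 over 26 of the interferon response and antigen presentation, 0.0068 over 28 of antioxidant and iron handling, 0.06 over 22 of histones and chromatin assembly, and 0.16 over 9 of pH control and carbonic anhydrases. At an unadjusted p under 0.05 these lists held 4, 0, 1, 5, 4, 2 and 2 higher and 0, 2, 3, 1, 2, 1 and 2 lower genes. Over all 12735 genes tested the counts were 1323 and 658. With 1.42% of all genes called higher and 0.126% lower, 0 calls in lists this short say little, here and in the lists above.

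A gene was read through its brightest probe set, and some further probe sets were lower where the brightest was not called lower. When each of 32768 probe sets above the filter was tested by itself, a check added after the data were seen, 227 (0.693%) were higher and 18 (0.0549%) were lower. Of the 18, 7 stand for their gene above, 8 are further probe sets of a named gene and 3 have no single gene name here. All 18 were apart in both lines. The count of lower probe sets was 164 without DKS5 hypoxia replicate 1. It was 2 and 4 without DKS5 normoxia replicates 1 and 2, 10 without DKS5 hypoxia replicate 2, 6 and 3 without DKO3 normoxia replicates 1 and 2, and 8 and 10 without DKO3 hypoxia replicates 1 and 2. The largest fall among them belonged to HK2, the hexokinase whose brightest probe set rose. That brightest probe set rose from 3100 and 3220 to 5330 and 5830 in DKS5 and from 2870 and 3050 to 3710 and 4470 in DKO3. The second brightest fell from 464 and 459 to 166 and 122 in DKS5 and from 652 and 676 to 147 and 218 in DKO3, a difference of -1.69 ± 0.17 (adjusted p = 3.6e-05 over all probe sets). It was the one lower probe set still called with the ACTB covariate (-1.62, adjusted p = 0.000736). The dimmest HK2 probe set stood at -0.69 ± 0.18 (adjusted p = 0.0942). Which HK2 transcripts these probe sets read is not given in the tables used here.

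**Figure D4:**
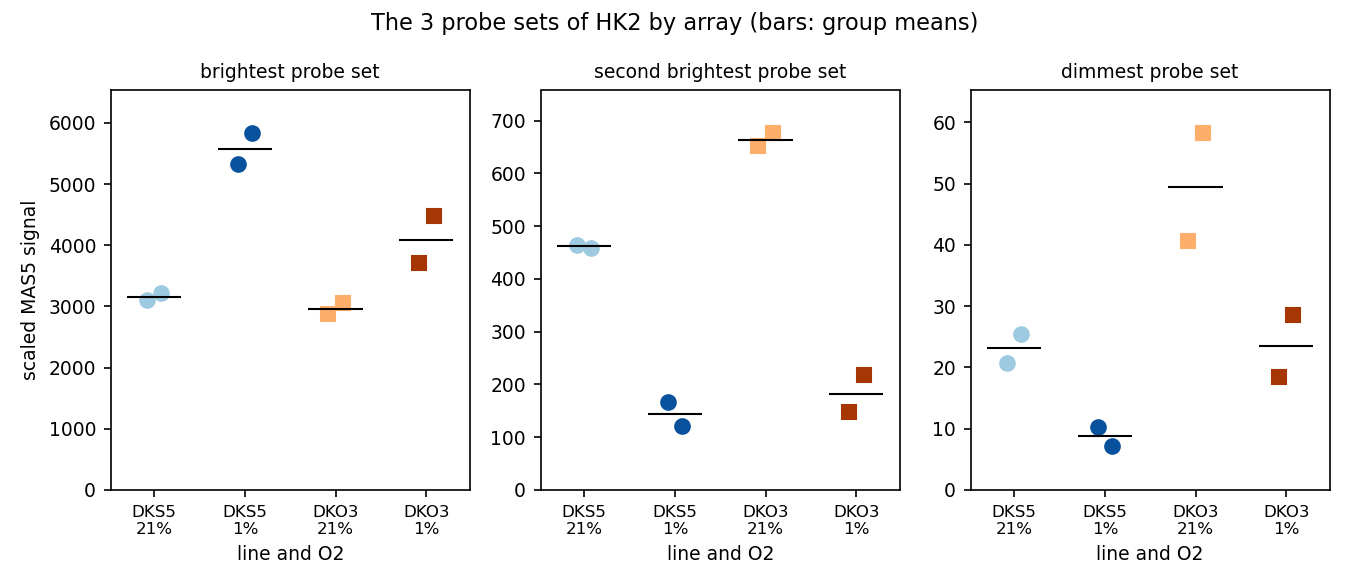
Scaled MAS5 signal of the 3 probe sets of HK2, from 0 on a linear axis that differs between panels, with 1 point per array and a bar at each group's mean. The brightest probe set (left) is higher at 1% O2 in both lines, while the second brightest (middle) is lower (464, 459, 652 and 676 at 21% O2 against 166, 122, 147 and 218).

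The genes of these further probe sets were named after their values were seen. For SLC38A2, a neutral amino acid transporter, the probe sets differed in size and not in direction. A further probe set fell from 2580, 2250, 2350 and 2030 to 1850, 1420, 1320 and 1140 (-0.70 ± 0.13, adjusted p = 0.0171), and another fell by 0.61 on the log2 scale (adjusted p = 0.0431), while the brightest probe set stood at -0.13 (adjusted p = 0.619). NDUFAF4, an assembly factor of complex I, fell by 0.82 on the log2 scale through a further probe set, from 431, 427, 267 and 321 to 217, 199, 155 and 213, and stood at -0.57 (adjusted p = 0.0777) through its brightest. Single probe sets of CDC37L1 (-0.83), PON2 (-0.82) and DIRAS2 (-0.77) also fell, where the brightest probe sets gave -0.35, -0.14 and -0.16. For most called genes the further probe sets moved with the one tested. Of 163 further probe sets of the genes that rose, 150 (92%) had a positive difference, and of 30 of the genes that fell, 27 (90%) had a negative one, where 64% of 13103 further probe sets over all genes matched in sign. The 13 opposite probe sets of genes that rose included those of HK2, 1 of TPI1 (-0.41), 1 of P4HA1 (-0.24) and 1 of PRDX2 (-0.20). Of the 3 opposite ones of genes that fell, 1 belonged to TAF9B (0.64) and 2 to CCDC88A (0.39 and 0.09). BDNF had a further probe set at -0.67 ± 0.19 (adjusted p = 0.144 over all probe sets), SLC7A11 had one at -0.89 ± 0.19 (adjusted p = 0.0345) and one at -0.22, and LPAR1 had further ones at -0.27 and -0.07.

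The size of the response was compared between the lines through the interaction of line and oxygen. Limma called 0 genes, with 333 at an unadjusted p under 0.05, of which 20 were among the 197 called genes, and the smallest adjusted p among those was 0.738. A p that misses the threshold does not show equal responses. Of the genes that rose, 97 had the larger rise in DKS5 and 84 in DKO3; of those that fell, 7 had the larger fall in DKS5 and 9 in DKO3. NDRG1 rose by 3.82 in DKS5 and 2.34 in DKO3, a difference of -1.48 ± 0.29 for DKO3 minus DKS5 (unadjusted p = 0.000116, adjusted p = 0.738), and DDIT4 by 2.51 and 1.30 (-1.21 ± 0.23, adjusted p = 0.738). These are the called genes with the smallest interaction p. Of the largest falls, MKX stood at -0.99 and -1.04 and BDNF at -1.04 and -0.99, with interaction differences whose unadjusted p was 0.922 and 0.905. Holding both lines together added calls. When each line was tested with its own contrast, 31 of the 181 rises passed in both lines, 32 in DKS5 alone, 8 in DKO3 alone and 110 in neither, and all 16 falls passed in neither. That fit shares 1 estimate of the spread between the lines. With the arrays of each line fitted by themselves the order was the other way, with 35 of the 181 called in DKS5 and 55 in DKO3.

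**Figure D5:**
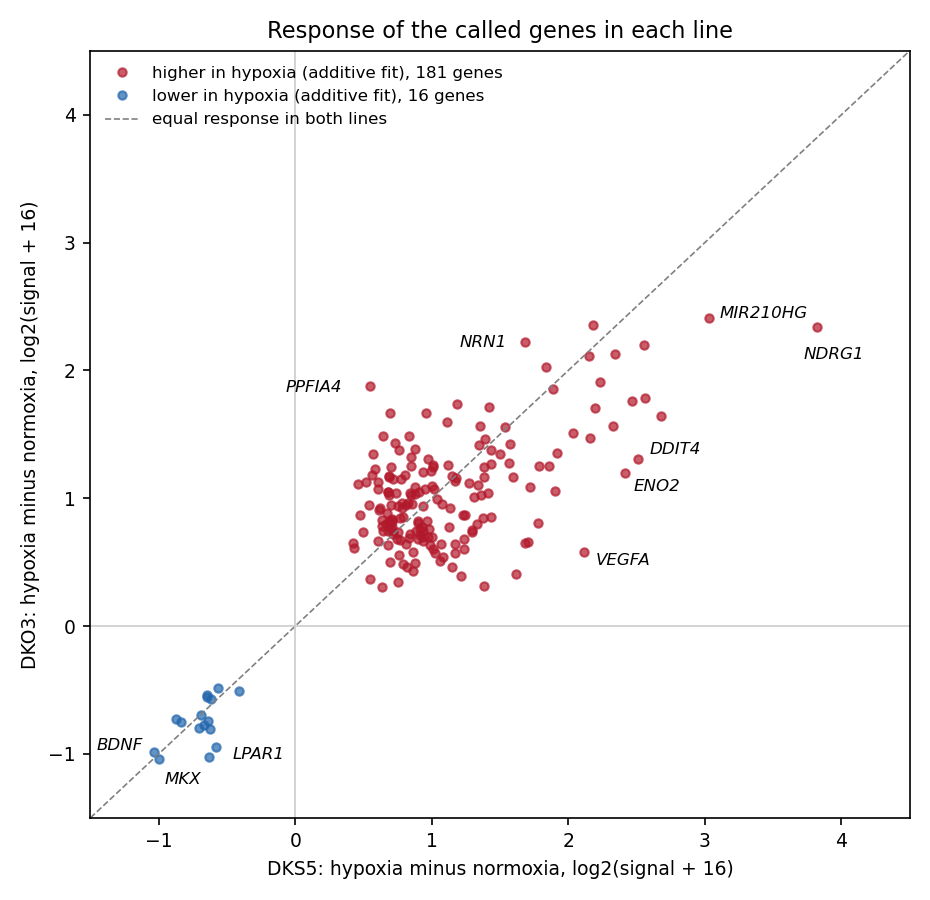
Hypoxia minus normoxia difference on the log2(signal + 16) scale in DKS5 (x axis) and DKO3 (y axis) for the 181 genes called higher (red) and the 16 called lower (blue) over both lines, with the dashed line at equal responses. All red points are positive and all blue points negative in both lines. Each gene is read through its brightest probe set. NDRG1 and VEGFA lie below the line (3.82 against 2.34, and 2.12 against 0.58) and PPFIA4 above it (0.55 against 1.87). In the further VEGFA probe sets the lines were closer.

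Some called genes are neighbours within 10000 bases in the RefSeq table. MIR210HG lies beside RASSF7, ANGPTL4 beside RAB11B-AS1 and CFAP96 beside ANKRD37, and both members of each pair rose. PGK1 and TAF9B are neighbours that moved apart. PGK1, a glycolytic kinase, rose from signals of 4043 to 4283 to 5269.7 to 7049.9 (0.55 ± 0.11, adjusted p = 0.0113), while TAF9B fell from 1731 to 2281 to 982 to 1494 (-0.59 ± 0.13, adjusted p = 0.0252), with a further probe set at 0.64.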

How the data were processed

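RNA from 8 samples was measured on 1-colour Affymetrix HG-U133 Plus 2.0 arrays. The authors deposited 1 table with a linear signal intensity for each probe set. The submitters' processing notes name MAS5; its version and its scaling target are not given in the sources used here. Of 54675 probe sets, 62 controls were left out; 41097 had 1 gene symbol, 1801 several and 11721 none, and 41043 matched RefSeq (GRCh38.p14). The deposited trimmed means (2% off each end) ran from 132.5 to 201, a range over the tolerance of 10%, so each array was scaled to 172.1. Values were taken as log2(signal + 16) from the deposited intensity. The brightest probe set stood for a gene (19775 genes), and 12735 genes above the 40th percentile of probe set means (a signal of 13.8) were tested.

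limma 3.58.1 (R 4.3.3) fitted line and oxygen additively with a trended prior (5 residual and 11.6 prior degrees of freedom), two-sided, with Benjamini-Hochberg adjustment at 0.05; 8 arrays limit the precision. The interaction came from 1 mean per group. The script was tested on simulated data. Named genes are the 20 largest rises, all falls, up to 4 members of each list by smallest p and some fixed genes; other named genes are said to be chosen after their values were seen. The 33 lists (957 genes, 816 tested) and the members were chosen with earlier results of these data known. Alternatives changed the pseudocount, filter, scaling, probe set rule, covariates, blocks, prior and threshold, or left out each array. Sample numbers were shared by the groups, but the correlations of the deviations of same-numbered samples ran from -0.09 to 0.33, so the numbers were not taken to pair samples.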

Additional observations from a re-analysis of the deposited data

Results flagged for a closer look

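Among the largest rises and the falls, the 4 arrays of an oxygen level were compared after each line's mean was taken out. Of 98 such sets of 4, 5 held an array far from the other arrays. Chance flags about 1 in 20 independent sets. These sets are not independent, because each line's mean was taken over both oxygen levels, so that rate need not apply. The measure is the gap of the extreme array to its nearest neighbour over the range of the set, and values above Dixon's 95% critical value were counted. For SLC2A3 the gap was 0.843 at normoxia, where DKS5 replicate 2 was lowest (a signal of 114), and 0.886 in hypoxia, where DKS5 replicate 2 was highest (1190). For CFAP96 it was 0.978 at normoxia, where DKS5 replicate 1 was lowest (7.14), and 0.86 in hypoxia, where DKS5 replicate 2 was highest (184). For NRN1 it was 0.835 in hypoxia, where DKO3 replicate 1 was highest (111). All 3 genes were called in each of the 8 fits that left out 1 array.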

How the results depend on the processing

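The counts of 181 higher and 16 lower genes stayed within 1.5 times under pseudocounts of 1 (163 and 13) and 64 (181 and 15), a filter at the 60th percentile (167 and 22), quantile normalization (156 and 18), the mean of probe sets (155 and 11) and a robust prior (187 and 16). They moved further in other settings, and the cause was not tested: without a filter on dim genes 80 and 3, with the ACTB ratio 93 and 0 (91 and 0 moving the same way in both lines), without a line term 54 and 1, at a threshold of 0.01 87 and 3, in DKS5 alone 36 and 0, and in DKO3 alone 67 and 1. The lower count was 34 without scaling (26 the same way in both lines), 7 with 1 mean per group and 10 without a trended prior. With the sample number as a replicate block there were 290 higher and 50 lower genes (46 lower the same way), including all 181 and 16; with line by number as blocks there were 32 lower (29 the same way), and 179 and 14 of the calls were kept. Leaving out each array gave 92 to 385 higher (92 to 373 the same way) and 3 to 184 lower (3 to 180 the same way). The interaction gave 0 calls in every setting in which it was run. Of the values of 148 named or listed genes under these settings, 3224 kept direction and side of the threshold, 65 newly passed, 396 no longer passed and 5 reversed. The reversed values were CCNB2 at -0.028 with the mean of probe sets, and BNIP3 at 0.296 with the ACTB ratio, 0.44 in DKS5 alone, 0.161 without DKO3 normoxia replicate 1 and 0.222 without DKO3 hypoxia replicate 2; leaving out each array gave BNIP3 from -0.214 to 0.222. Dim genes close to background limit the size of fold changes such as that of ANGPTL4.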
